A study of Xenopus laevis with 39 samples.

Results

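Receptors for neurotransmitters let one cell read the chemical signals of another, and the genes described here encode their subunits in the African clawed frog Xenopus laevis. They were chosen by name alone: symbols of the ionotropic glutamate (gria, grid, grik, grin), metabotropic glutamate (grm), GABA (gabr, gabbr), glycine (glra, glrb), nicotinic (chrn) and muscarinic (chrm) acetylcholine, serotonin (htr), dopamine (drd) and adrenergic (adra, adrb) receptors. The rule found 163 genes of 37223 in the count table, under 91 symbols. X. laevis is an allotetraploid that carries a long (.L) and a short (.S) copy, or homeolog, of many genes, and 71 of the symbols were present as both copies. The 163 genes fell into 14 families: 23 GABA-A and rho subunits, 22 metabotropic serotonin receptors, 18 adrenergic receptors, 17 neuronal nicotinic subunits, 14 NMDA, 12 metabotropic glutamate, 11 kainate, 10 dopamine, 9 muscarinic, 8 glycine, 7 muscle nicotinic, 5 AMPA, 4 5-HT3 and 3 GABA-B genes. Each had reads in at least 1 library.

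Glutamate is the main excitatory transmitter of the olfactory pathway: receptor neurons of the nose release it onto mitral and tufted cells in the olfactory bulb, which answer through AMPA and NMDA receptors. GABA, released by granule and periglomerular interneurons, inhibits those cells through GABA-A channels, and through GABA-B receptors it acts on the terminals of the receptor neurons themselves. Acetylcholine, serotonin, noradrenaline and dopamine reach both organs mostly as modulators, and muscle-type nicotinic receptors belong to the neuromuscular junction.

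The study took RNA from the olfactory system of X. laevis, with 3 libraries in each of 13 groups, to compare larvae with adults and the intact system with the injured one. The groups were whole noses of adult animals at stage 66, after metamorphosis; whole noses, whole olfactory bulbs, the principal cavity and the vomeronasal organ (VNO) of larvae; larval noses and bulbs taken 2 days, 1 week and 7 weeks after a transection; and larval noses after 5 h of amino acid exposure at 200 or 1000, where the labels leave the concentration unit incomplete. Larval noses and bulbs with no named procedure are called controls here. All groups were unmodified as far as the labels go: they name no genotype, strain or sex, and leave out which nerve was cut, whether animals were pooled and whether each library stands for its own animal or animals, so p-values measure the spread between libraries only. Titles name a stage for the adults only, and no batch. For the VNO the source label says accessory system and the tissue tag says olfactory lobe.

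Libraries held between 25.82 and 180.5 M counted reads (M, 1e6). Control noses and control bulbs matched their labels on sums of marker genes: summed receptor neuron markers stood at 2851 to 3156 CPM (counts per 1e6 reads) in control noses and 849 to 958 CPM in control bulbs, and markers of bulb neurons at 224 to 269 CPM against 1340 to 1410 CPM. Single markers did not all go this way. Of 26 receptor neuron markers, 18 were called higher in the nose and 6 lower, and of 24 bulb neuron markers 5 higher and 17 lower. In operated noses the receptor neuron markers were at 874 to 1499 CPM at 2 days and 722 to 751 CPM at 1 week. Bulbs of the same times were at 805 to 869 and 684 to 705 CPM. The 2-day nose range overlapped that of control bulbs, and the 1-week range lay below it. Bulb neuron markers were at 222 to 247 and 221 to 266 CPM in these noses, against 1624.5 to 1813 and 1274 to 1399 CPM in the bulbs. Muscle markers, at 112, 228 and 3210 CPM in the control noses and at 54.6, 88.5 and 2420 CPM in the 2-day noses, were high in library 1 of the controls and library 2 of the 2-day group. Cell-cycle markers were at 660 to 1037 CPM in control noses and 776 to 1130 CPM in control bulbs, and at 89.0 to 344 CPM in every operated, exposed or adult group. In whole tissue, fewer cells of a type and less RNA per cell cannot be told apart.

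Receptor subunit genes took 4456, 4503 and 4734 reads per 1e6 in the control bulbs and 410.2, 413.9 and 475.9 in the control noses. Bulbs rose to 5493 to 5580 per 1e6 at 2 days, stood at 5202 to 5422 at 1 week and at 3074 to 3840 at 7 weeks. Among noses the sum ran from 236.5 to 397.7 at 7 weeks up to 590.9 to 662.6 in the principal cavity, and the VNO spanned 351 to 546.1. These sums were not tested.

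The share of receptor genes called, at an adjusted p under 0.05 in edgeR's quasi-likelihood test with Benjamini-Hochberg adjustment over all genes tested, was above that of all genes between nose and bulb, at 85.9% against 74.8%. It was close to that of all genes between principal cavity and VNO (16.1% against 15.2%) and from 1 week to 7 weeks after transection, in noses (36.1% against 33.5%) and bulbs (40.9% against 38.6%). In each comparison of an operated, exposed or adult group with its larval controls it was below the share of all genes.

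**Figure D1:**
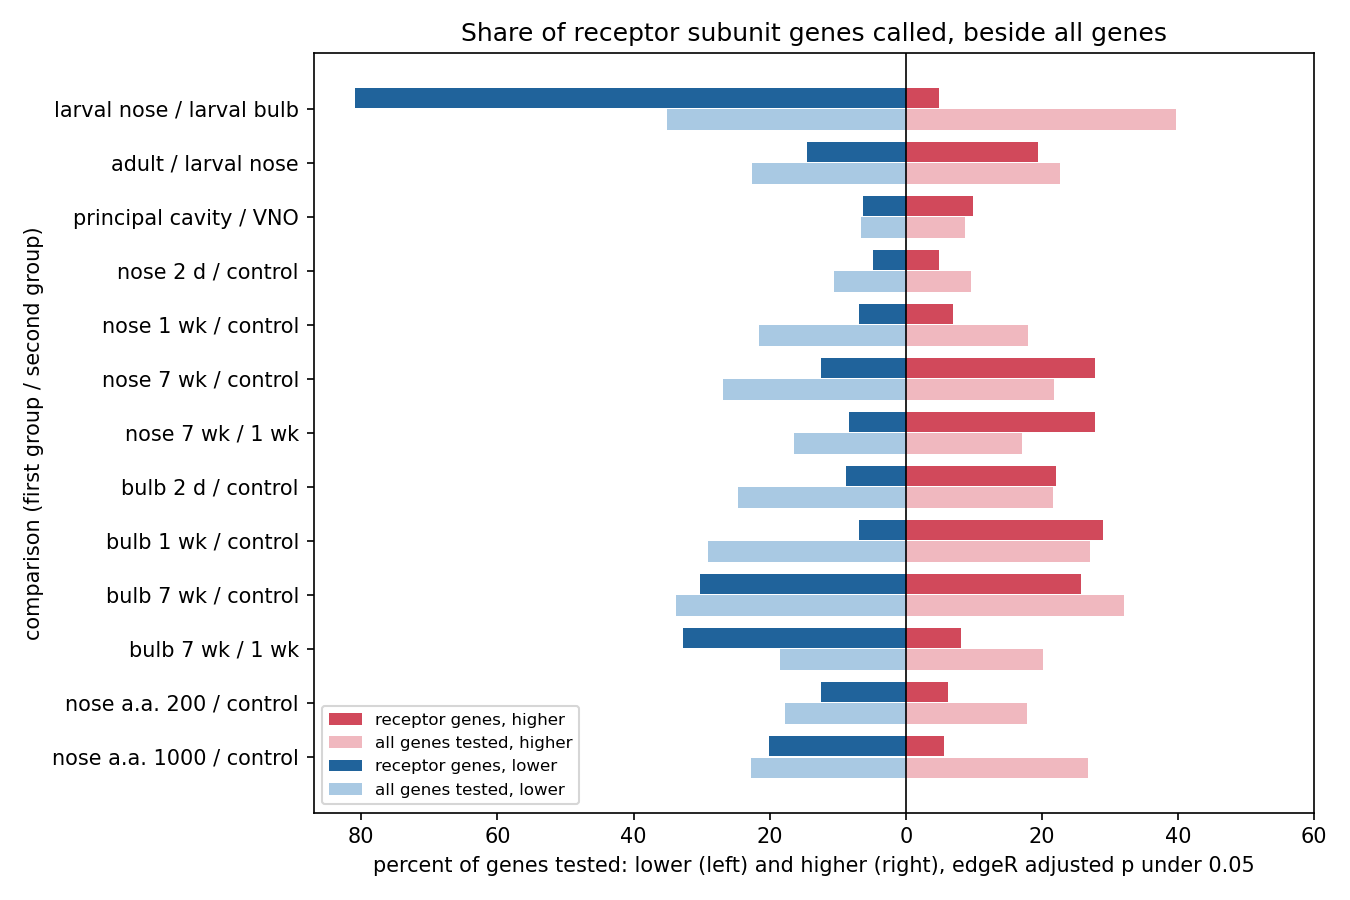
Percent of receptor subunit genes called higher or lower in each comparison (adjusted p under 0.05, edgeR's quasi-likelihood test), beside the percent of all genes tested. Receptor genes were called mostly lower between nose and bulb, where 81.0% were lower against 35.1% of all genes.

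The comparison of control noses with control bulbs asked which receptors each organ holds. Of the 163 genes, 132 were lower in the nose and 8 higher, where 35.1% of all genes were lower and 39.7% higher. The median log2 fold change, nose against bulb, was -3.31 over the receptor genes and 0.10 over all genes. All 5 AMPA, 11 kainate, 12 metabotropic glutamate, 3 GABA-B, 8 glycine, 9 muscarinic, 22 metabotropic serotonin and 10 dopamine receptor genes were lower in the nose. So were 13 of 14 NMDA genes and 18 of 23 GABA-A and rho genes.

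**Figure D2:**
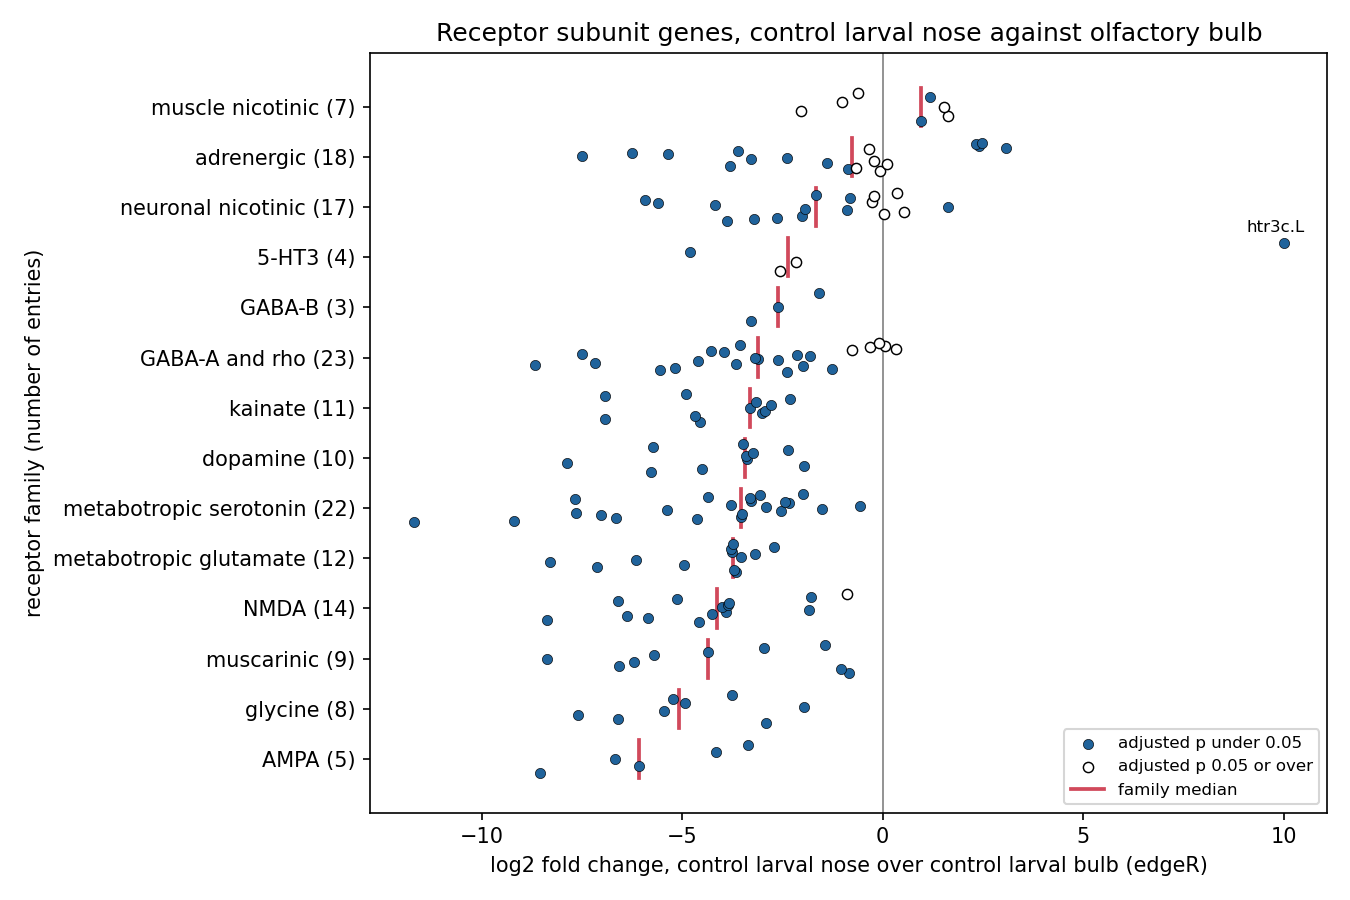
Log2 fold change of each receptor subunit gene, control noses against control bulbs, by family (points, genes; values below 0 are lower in the nose). AMPA genes had a median of -6.06, while the adrenergic median was -0.75 and the muscle nicotinic median 0.96.

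Among glutamate receptors, the AMPA subunit gene gria1-like.1.L, part of the fast excitatory channel, read 159, 156 and 155 CPM in bulbs and 0.276, 0.403 and 0.480 CPM in noses, a log2 fold change of -8.54 ± 0.48 (SE here and throughout; adjusted p = 2.07e-12). grin1, the subunit every NMDA receptor needs, differed between its copies: grin1.S was at 223, 230 and 241 CPM in bulbs and 0.690, 0.696 and 0.623 CPM in noses (-8.36 ± 0.70). grin1.L was at 185, 194 and 195 CPM in bulbs and still at 6.39, 9.35 and 6.96 CPM in noses. Both copies were therefore of like level in the bulb, and nearly all grin1 reads of the nose fell on the .L copy. Counting could split reads between near-identical copies, so values of single homeologs are uncertain throughout.

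The metabotropic glutamate receptor gene grm3.L read 29.2, 30.4 and 28.4 CPM in bulbs against 0, 0.0835 and 0.143 CPM in noses (-8.30 ± 0.42). For GABA, gabra5-like.L, an alpha subunit of the chloride channel, was at 14.3, 13.5 and 14.1 CPM in bulbs and 0, 0.0278 and 0.0519 CPM in noses (-8.67 ± 0.59). Of the GABA and glycine receptor genes, the gabbr1 copies had the most reads in the nose: gabbr1.L, which binds GABA, was at 36.5, 42.6 and 37.5 CPM and gabbr1.S at 36.5, 43.7 and 38.4 CPM. Its partner gabbr2.S, which couples to G proteins, was at 15.3, 20.6 and 18.2 CPM. All were higher in bulbs, at 388 to 406, 252 to 259 and 56.3 to 58.9 CPM.

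Serotonin receptor 1A, an inhibitory receptor, was near absent from the nose. htr1a.L had 0 reads in the control noses and 5.78, 6.34 and 5.77 CPM (1620 reads) in the bulbs, at least 385-fold lower in the nose with a floor of 3 reads over the group. htr1a.S had 2 reads against 2009, a ratio of 717 with a counting interval of 198 to 5921. chrm3.L, a muscarinic receptor that signals through Gq, had 1 read against 642, a ratio of 458 with an interval of 81.9 to 18118. The serotonin receptor htr5a.S was at 8.14, 9.20 and 7.70 CPM in bulbs and 0.0920, 0.0139 and 0.0260 CPM in noses (-7.68 ± 0.43).

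Of the 18 adrenergic genes 9 were lower in the nose, and 4 were among the 8 genes higher there. Among these 4 was the beta-3 receptor, which answers noradrenaline by raising cyclic AMP: adrb3.S was at 2.65, 3.88 and 3.75 CPM in noses and 0.671, 0.569 and 0.688 CPM in bulbs (2.49 ± 0.26, adjusted p = 1.26e-08). Its copy adrb3.L was at 6.60, 8.04 and 5.50 CPM against 1.12, 1.38 and 1.74 CPM (2.32 ± 0.21), and for both copies the 3 noses stood above all bulbs. Among nicotinic genes, chrna6.L, an alpha subunit of neuronal channels, was higher in noses at 0.598, 1.03 and 0.922 CPM against 0.186, 0.343 and 0.331 CPM (1.63 ± 0.34). Of the 17 neuronal nicotinic genes 11 were lower in the nose, and chrna6.L alone was higher. Muscle-type chrne.S and chrna1.2.L were also called higher (1.19 ± 0.41 and 0.96 ± 0.30). The call of chrna1.2.L was lost without control nose 1 (0.65 at the lowest over the libraries left out), the library with the high muscle markers, and also without control bulb 1. For chrne.S the call was lost without control nose 3 or control bulb 1 or 2, and the summed value of both copies was -0.50 and not called (adjusted p = 0.192).

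The remaining gene higher in the nose was htr3c.L, a subunit of the 5-HT3 receptor, the only serotonin receptor that is an ion channel. Its reads were 2565 in the control noses and 3 in the control bulbs, a ratio of 1198 with an interval of 410 to 5815. Nose libraries read 9.15, 16.4 and 12.8 CPM and bulbs 0, 0 and 0.0382 CPM, and no bulb of any group passed 0.0584 CPM. The other 5-HT3 genes were near 0 in both organs: htr3a.L did not pass 0.235 CPM, htr3a.S 0.242 CPM and htr3b.L 0.369 CPM in any library.

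**Figure D3:**
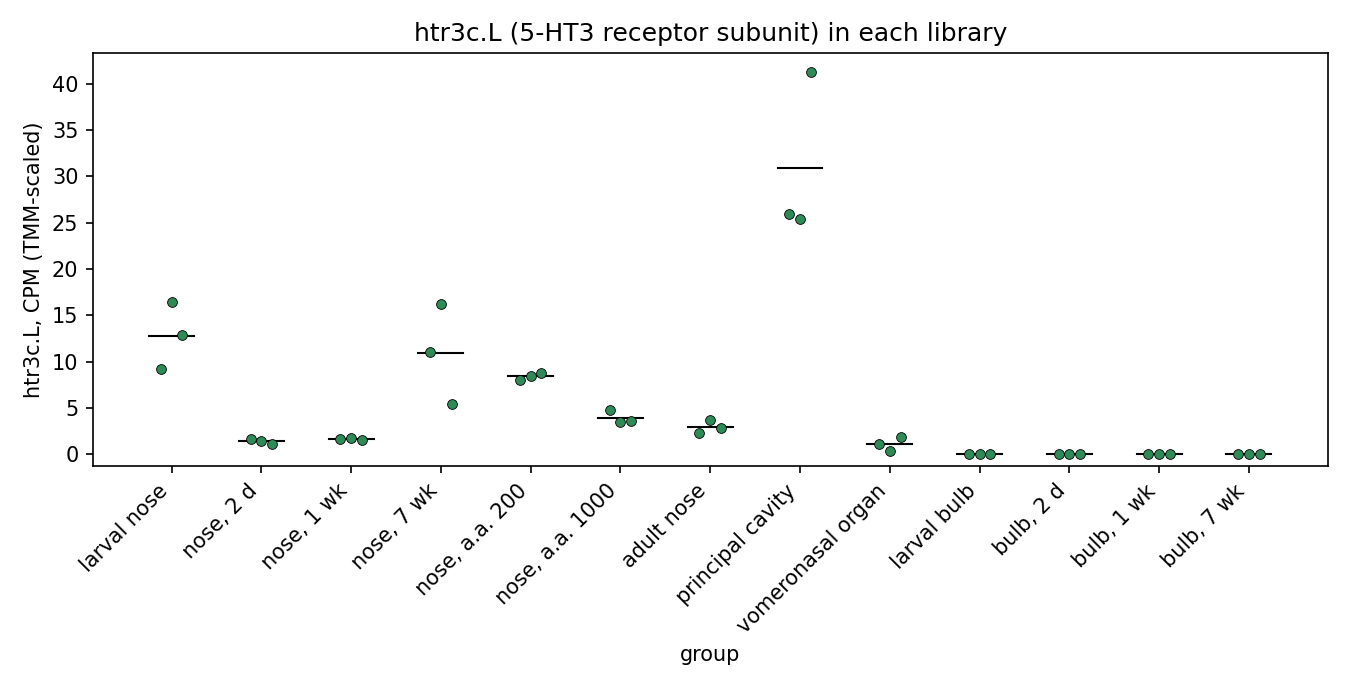
CPM of htr3c.L in each of the 39 libraries by group (points, libraries; line, group mean). Principal cavity libraries were the highest, at 25.4 to 41.2 CPM, and bulbs were at or near 0.

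Of the genes named at 2 days and at 1 week in operated noses, htr3c.L had the largest fall. It read 1.66, 1.45 and 1.13 CPM at 2 days and 1.63, 1.73 and 1.49 CPM at 1 week, all below every control (-3.21 ± 0.29 and -3.02 ± 0.29, adjusted p = 1.29e-06 and 1.48e-07). At 7 weeks it read 11.1, 16.2 and 5.41 CPM, which overlapped the controls (-0.17 ± 0.26, adjusted p = 0.607) and exceeded the 1-week noses (2.85 ± 0.29). Adult noses, at 2.26, 3.64 and 2.87 CPM, were lower than larval ones (-2.17 ± 0.27, adjusted p = 2.31e-06). After exposure it read 8.06, 8.43 and 8.80 CPM at 200 (-0.61, adjusted p = 0.0748) and 4.77, 3.44 and 3.53 CPM at 1000 (-1.60 ± 0.27, adjusted p = 4.77e-05). All of these comparisons but the one with the 1-week noses share the same 3 control noses.

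Receptor neuron markers, of which none is a receptor subunit gene, were at 874 to 1499 CPM at 2 days, 722 to 751 CPM at 1 week and 1201 to 2496 CPM at 7 weeks, and in adults at 3441 to 4319 CPM. Exposed noses held 3675 to 3736 CPM at 200 and 2471 to 2775 CPM at 1000. Low htr3c.L thus stood beside low receptor neuron markers at 2 days and 1 week, and beside marker levels at or above the larval controls in the adult nose. At 7 weeks htr3c.L overlapped the controls, while the summed markers were still below them (18 of 26 called lower, 0 higher). The part of these cells in the result was not tested.

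Partner and supply genes also separated the organs. Of 84 genes for scaffolds, auxiliary subunits and other receptor partners, 74 were lower in the nose and 5 higher; of 46 genes for transmitter synthesis, packaging and uptake, 37 were lower and 7 higher. gad1.1.L, the enzyme that makes GABA, was at a mean of 260 CPM in bulbs and 0.0818 CPM in noses. Among the exceptions, rapsn.S, which clusters muscle nicotinic receptors, was higher in the nose (2.05 ± 0.34), as was gad1.2.S (5.16 ± 0.39).

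Principal cavity and VNO house separate sets of receptor neurons, and the comparison asked which transmitter receptors differ between them. Of 112 receptor genes tested, 11 were higher in the principal cavity and 7 lower, 16.1% in all. Of all genes 15.2% were called (8.66% higher and 6.53% lower). htr3c.L was at 26.0, 25.4 and 41.2 CPM in the principal cavity and 1.04, 0.295 and 1.85 CPM in the VNO (4.81 ± 0.64, adjusted p = 0.00398). The neuronal nicotinic gene chrna2.L went the other way, at 0.893, 1.26 and 0.968 CPM against 8.46, 7.62 and 6.63 CPM in the VNO (-2.93 ± 0.29, adjusted p = 0.000628). In neither gene did the groups overlap.

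Copies of one gene were used unequally in the 2 chambers. chrna5-like.S, an accessory nicotinic subunit by its name, read 6.64, 4.92 and 6.84 CPM in the principal cavity and 0, 0.106 and 0.189 CPM in the VNO (5.76 ± 0.69). chrna5-like.L read 7.67, 5.23 and 5.60 CPM against 5.64, 7.42 and 10.8 CPM (-0.43, adjusted p = 0.351), and the sum of both copies was not called (0.55). The kainate receptor gene grik5-like.1.S was at 18.8, 22.4 and 23.5 CPM against 3.26, 4.75 and 3.47 CPM (2.43 ± 0.22), while grik5-like.1.L, the copy with more reads, overlapped at 163, 151 and 98.5 against 72.3, 125 and 83.5 CPM (0.49, adjusted p = 0.262). Their sum was not called either (0.64). For htr7, a serotonin receptor that raises cyclic AMP, the .L copy was higher in the principal cavity (2.00 ± 0.46) and the .S copy lower (-1.80 ± 0.31). The libraries of htr7.L read 1.67, 2.02 and 1.73 CPM against 0.340, 0.662 and 0.277 CPM, and those of htr7.S read 2.81, 1.66 and 1.62 CPM against 5.61, 6.30 and 8.46 CPM. The call of htr7.L was lost without any 1 of the 3 principal cavity libraries or VNO library 3.

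The kainate gene grik1.L, a call that held in every alternative, was at 1.25, 1.27 and 1.39 CPM in the principal cavity and 3.91, 4.67 and 4.63 CPM in the VNO (-1.82 ± 0.26). The nicotinic genes chrnb3.L (1.95 ± 0.35), chrna6.L (3.24 ± 0.84) and chrnb2.S (1.76 ± 0.45) were called higher in the principal cavity. Without principal cavity library 1 none of these 3 was called, and the count of receptor genes called fell from 18 to 9. Among partners, 7 of 72 were higher in the principal cavity and 11 lower. Summed markers of some other cells differed between the chambers too. Glial markers were at 517 to 608 CPM in the principal cavity and 208 to 233 CPM in the VNO (8 of 20 higher, 0 lower). Bulb neuron markers summed to 227 to 271 against 419 to 783 CPM, yet 4 of 20 were called higher and 5 lower (median log2 fold change 1.00). General neuron markers were at 2179 to 2680 against 3087 to 4448 CPM (2 of 21 higher, 3 lower). Muscle markers overlapped at 34.9 to 50.5 against 46.1 to 148 CPM (1 of 23 higher, 11 lower). Cell-cycle markers overlapped at 148 to 956 against 633 to 1058 CPM, with 0 of 32 called higher or lower. Their part in the receptor differences was not tested. Of the partners, the synapse organiser cbln1.S (3.68 ± 0.40) was higher in the principal cavity, and the scaffold dlg2.L (-2.40 ± 0.26) lower.

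Between adult and larval noses, 28 of 144 receptor genes tested were higher in adults and 21 lower, 34.0% in all. Of all genes 45.3% were called (22.7% higher and 22.6% lower). The median log2 fold change was 0.28 over the receptor genes and 0.00 over all genes. Glycine receptors (3 of 7 higher, 0 lower), muscarinic receptors (3 of 8 and 0), GABA-B genes (both gabbr1 copies, and 0) and AMPA genes (2 of 5 and 0) were called only upwards. Adrenergic genes were split, with 3 of 16 higher and 6 lower, as were metabotropic serotonin genes, with 4 of 16 higher and 5 lower.

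gabrp.L, the pi subunit of the GABA-A receptor, found mostly outside the brain in mammals, was at 3.97, 1.65 and 1.36 CPM in adult noses and 0, 0.125 and 0.0130 CPM in larval ones (5.45 ± 0.78, adjusted p = 1.09e-05). The alpha-1 adrenergic receptor gene adra1b.S was at 2.30, 0.626 and 0.809 CPM against 0.0230, 0.0696 and 0.0649 CPM (4.41 ± 0.71), and its copy adra1b.L rose with it (3.01 ± 0.45). Adult library 1 was the highest for both gabrp.L and adra1b.S. grm2.L, a presynaptic glutamate receptor, was at 0.738, 0.653 and 0.788 CPM against 0, 0.0835 and 0.0260 CPM (4.08 ± 0.88).

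Several genes of high level in the bulb were also higher in the adult nose. grin1.S was at 7.35, 4.62 and 6.97 CPM against 0.690, 0.696 and 0.623 CPM in larval noses (3.19 ± 0.73), and gria1-like.1.L at 2.91, 2.29 and 3.98 CPM against 0.276, 0.403 and 0.480 CPM (2.91 ± 0.52). Of 14 NMDA genes tested, grin1.S alone was called higher, 1 was lower and 12 were neither. The copy grin1.L, which held nearly all grin1 reads of larval noses, was thus not called higher. htr1a.S had 157 reads against 2, a ratio of 64.1 with an interval of 17.5 to 534. The bulb interneuron gene gad2.L read 4.72, 3.25 and 4.32 CPM in the same adult noses and 0.184 to 0.250 CPM in larval ones, and neurod6.L, at 77.3 to 80.3 CPM in control bulbs, read 0.0590, 0.0933 and 0.669 CPM against 0 to 0.0130 CPM. Over the whole list of 24 bulb neuron markers, adult noses were at 209 to 222 CPM and larval noses at 224 to 269 CPM, with 11 of 23 tested called higher in adults and 7 lower (median 0.54 on the log2 scale). General neuron markers were at 759 to 1118 CPM in adults and 1593 to 1791 CPM in larvae, and glial markers at 986 to 1383 and 651 to 769 CPM. The part of bulb tissue, neurons or glia in these results was not tested.

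Lower in adults, besides htr3c.L, were the serotonin receptors htr2a.L (0.605, 0.680 and 0.712 CPM against 1.22, 1.78 and 2.62 CPM, -1.54 ± 0.31) and htr7.S (1.14, 0.933 and 1.04 CPM against 3.45, 3.10 and 2.08 CPM, -1.52 ± 0.32). The alpha-1 receptor adra1a.L fell from 3.68, 3.27 and 3.28 CPM to 1.00, 1.39 and 1.34 CPM (-1.50 ± 0.23), the opposite direction to adra1b. grik5-like.1.L, the kainate gene with the most reads in the nose, was at 28.5, 31.6 and 38.3 CPM in adults and 75.0, 70.9 and 67.7 CPM in larvae (-1.17 ± 0.15). No library of one stage reached the range of the other in any of these. Of receptor partners, 25 of 81 were higher in adults and 6 lower, and of supply genes 17 of 40 and 5. kctd12.L, an auxiliary subunit of GABA-B receptors, was higher (1.79 ± 0.21), as was the vesicular GABA transporter slc32a1.S (5.22 ± 1.07).

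Noses after transection asked how the receptors of the injured organ differ from the intact one, and few were called in the first week. At 2 days 7 of 144 were higher and 7 lower, 9.72% in all, where 20.2% of all genes were called (9.62% higher and 10.6% lower). At 1 week 10 were higher and 10 lower, 13.9% in all, against 39.7% of all genes (18.0% higher and 21.6% lower). All comparisons of noses with controls use the same 3 control noses, so changes at 2 days, 1 week and 7 weeks are not independent of each other. With no larval stage or batch named, injury cannot be told apart from a stage or batch difference of these controls.

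All 3 GABA-B receptor genes were lower at both times. gabbr1.L was at 36.5, 42.6 and 37.5 CPM in controls, 32.3, 26.4 and 23.2 CPM at 2 days and 21.0, 19.4 and 18.2 CPM at 1 week (-0.56 ± 0.15 and -1.04 ± 0.15). gabbr1.S read 36.5, 43.7 and 38.4 CPM, then 32.5, 24.2 and 22.2 CPM, then 19.8, 17.7 and 17.2 CPM (-0.64 ± 0.15 and -1.16 ± 0.15, adjusted p = 0.0043 and 4.16e-06). gabbr2.S read 15.3, 20.6 and 18.2 CPM, then 12.8, 11.5 and 10.7 CPM, then 7.60, 8.60 and 8.00 CPM (-0.67 ± 0.21 and -1.20 ± 0.21). Operated libraries were below all controls in each case. At 2 days the calls of gabbr1.L and gabbr2.S were lost without 2-day library 2 or 3, and that of gabbr2.S also without control 2 or 3, with values of -0.46 and -0.57 at the smallest. At 1 week all 3 calls held in every alternative. Auxiliary GABA-B proteins were called lower beside them at 1 week, kctd16.S by -1.80 ± 0.32 and kctd16.L by -1.98 ± 0.52.

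glrb.S, the beta subunit that anchors glycine receptors at synapses, was at 2.58, 3.78 and 2.69 CPM in controls, 1.61, 0.954 and 0.950 CPM at 2 days (-1.41 ± 0.33) and 0.885, 0.798 and 0.661 CPM at 1 week (-1.99 ± 0.35). The GABA-A gene gabra3-like.L fell from 24.4, 31.4 and 29.9 CPM to 12.5, 12.6 and 11.5 CPM at 1 week (-1.27 ± 0.18). grm7.L, a glutamate receptor of presynaptic terminals, fell from 5.57, 7.79 and 6.05 CPM to 3.04, 3.11 and 2.49 CPM (-1.21 ± 0.20), while its change at 2 days was not called (-0.35, adjusted p = 0.238). The serotonin receptor gene htr4.L, at 3.08, 1.00 and 1.49 CPM in controls, read 0.473, 0.788 and 0.749 CPM at 2 days (-1.52 ± 0.41). Its call rested on control 1, without which it was -0.91 and not called, and on 2-day library 1.

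Kainate and adrenergic genes were called only upwards in these noses, 3 of 11 and 4 of 16 at each time. grik5-like.1.S rose from 12.5, 13.9 and 14.2 CPM to 21.5, 19.9 and 20.6 CPM at 2 days (0.57 ± 0.15) and 29.8, 23.2 and 25.5 CPM at 1 week (0.91 ± 0.15). grik5-like.1.L rose from 75.0, 70.9 and 67.7 CPM to 124, 114 and 105 CPM at 2 days (0.63 ± 0.14), and its value at 1 week was not called (0.34, adjusted p = 0.0682). At 1 week grik2.S (4.16, 3.79 and 3.71 CPM against 1.89, 2.32 and 2.57 CPM, 0.74 ± 0.18) and grik1.L (3.88, 3.50 and 3.03 CPM against 2.05, 2.23 and 1.88 CPM, 0.71 ± 0.18) were higher. Of the adrenergic genes at 2 days, adra1d.L (16.7, 14.6 and 14.8 CPM against 8.40, 12.5 and 9.65 CPM, 0.55 ± 0.14) held in every alternative. The call of adrb3.L (0.68 ± 0.18) was lost without control 3 or 2-day library 3.

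Summed markers moved in the same noses. Receptor neuron markers were lower at both times, as given above. General neuron markers were at 1593 to 1791 CPM in controls, 1564 to 2084 CPM at 2 days and 949 to 1087 CPM at 1 week, and leukocyte markers at 414 to 610, 757 to 862 and 801 to 909 CPM. The part of cell numbers in the receptor changes was not tested. Of 81 receptor partners, 5 were higher and 12 lower at 2 days, and 7 and 22 at 1 week. Among them gpr158.L, an orphan relative of GABA-B receptors, was lower at 1 week (-2.37 ± 0.26). Of 40 supply genes, 4 were higher and 10 lower at 1 week, among them the vesicular glutamate transporter slc17a7.L (-1.94 ± 0.19). dbh.L, which makes noradrenaline, was higher (2.19 ± 0.19).

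**Figure D4:**
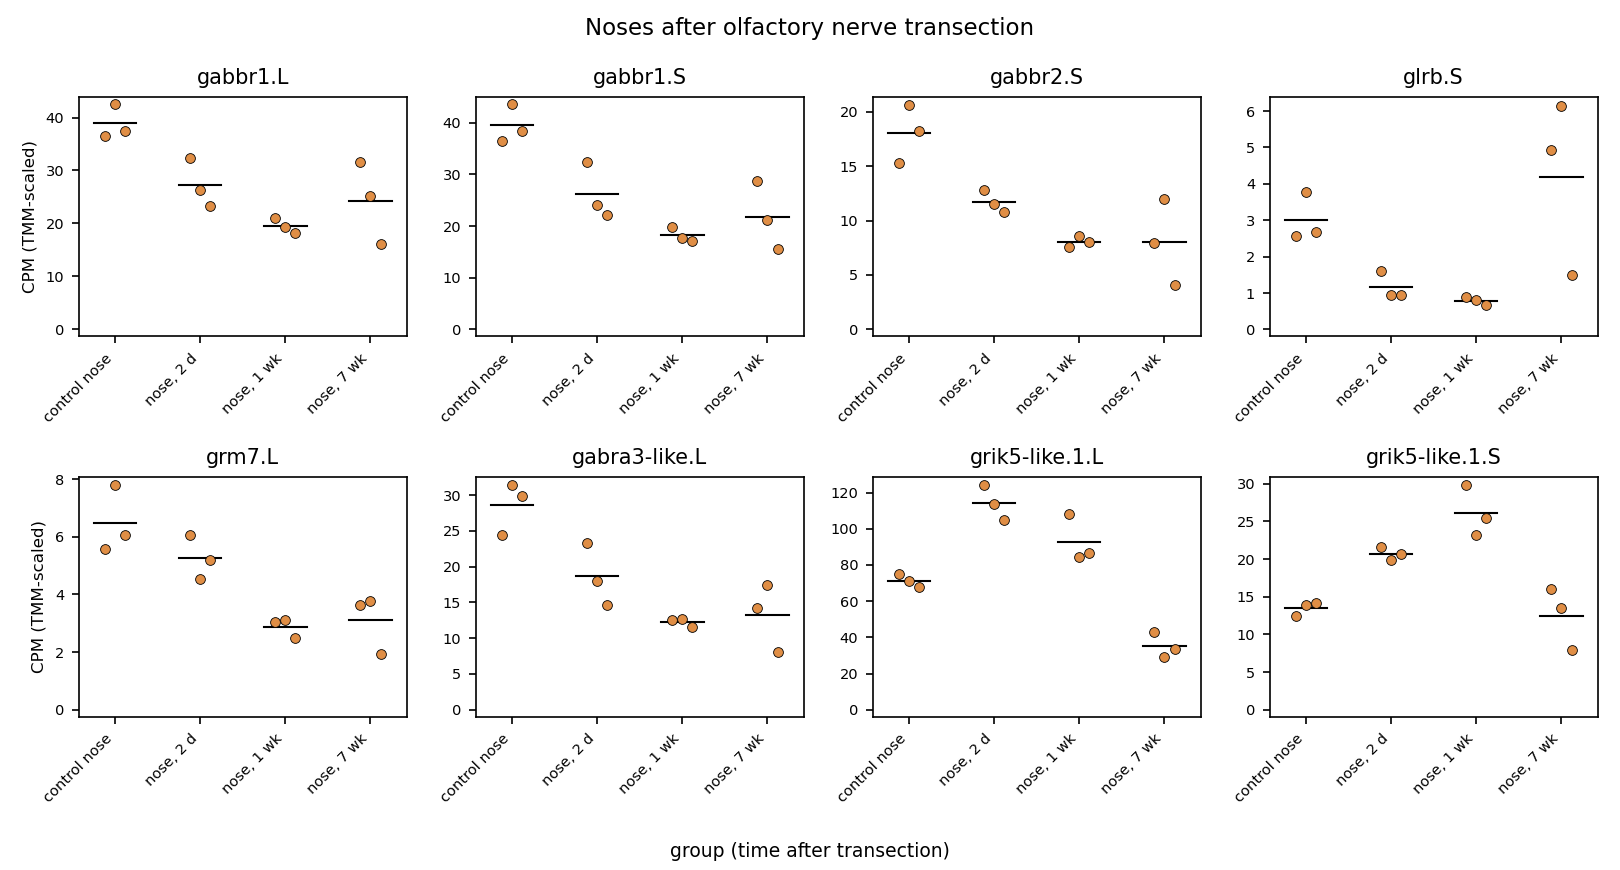
CPM of 8 receptor genes in control noses and at 2 days, 1 week and 7 weeks after transection (points, libraries; line, group mean). GABA-B genes, gabra3-like.L and grm7.L were lower at 1 week and 7 weeks, glrb.S overlapped the controls again at 7 weeks, and grik5-like.1.L passed from above the controls to below them.

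At 7 weeks 40 of the 144 receptor genes were higher than in controls and 18 lower, 40.3% in all. Of all genes 48.5% were called (21.7% higher and 26.8% lower). The median log2 fold change was 0.31 over the receptor genes and -0.08 over all genes. With only these 2 groups in the fit the count fell from 58 to 23 (16 higher and 7 lower). Animals were also 7 weeks older than at transection, and time after injury and age cannot be told apart.

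The 3 libraries of this group were unlike each other in genes of high level in the bulb. gria1-like.1.L read 7.84, 3.18 and 0.753 CPM (3.34 ± 0.53 against controls), grin1.S 14.3, 2.48 and 0.612 CPM and the kainate gene grik2.L 6.54, 2.12 and 0.942 CPM (2.54 ± 0.50, and 1.60 without library 1). Library 1 was the highest and library 3 the lowest in each, and grin1.S in library 3 was just below every control. GABA synthesis genes gave the same order, gad1.1.L at 12.0, 4.15 and 0.330 CPM and gad2.L at 11.0, 4.95 and 0.612 CPM, as did the bulb neuron genes neurod6.L at 1.52, 0.344 and 0 CPM and neurod2.S at 1.52, 0.374 and 0 CPM. Over the whole list of bulb neuron markers the 3 libraries were at 283, 227 and 247 CPM, beside 224 to 269 CPM in controls. Library 1 was the highest there too, but library 2 was the lowest. Of 23 tested, 6 were called higher than in controls and 4 lower (median log2 fold change 0.25). The part of bulb tissue in these rises was not tested. Without library 1, 36 receptor genes were higher and 33 lower.

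glra1-like.S, a glycine receptor alpha subunit, read 1.34, 0.777 and 0.471 CPM against 0.207, 0.264 and 0.208 CPM (1.96 ± 0.45), again with library 1 highest and library 3 lowest. Genes that rose with the opposite order of the libraries were grin2b.L, an NMDA subunit of developing circuits, at 0.672, 1.14 and 1.51 CPM against 0.230, 0.334 and 0.195 CPM (2.19 ± 0.47), and the alpha-2 adrenergic receptor adra2c.L, at 1.12, 1.25 and 1.46 CPM against 0.529, 0.348 and 0.338 CPM (1.73 ± 0.33). All 7-week libraries of these 3 genes were above all controls.

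GABA-B genes did not regain the control level. gabbr1.S was at 28.7, 21.1 and 15.6 CPM (-0.81 ± 0.15), gabbr1.L at 31.5, 25.3 and 16.1 CPM (-0.63 ± 0.15) and gabbr2.S at 7.93, 12.0 and 4.10 CPM (-1.10 ± 0.21). Against the 1-week noses gabbr1.L was slightly higher (0.41, adjusted p = 0.0434), and gabbr1.S (0.35, adjusted p = 0.076) and gabbr2.S (0.10, adjusted p = 0.74) were not called. gabra3-like.L, at 14.2, 17.4 and 8.10 CPM, and grm7.L, at 3.63, 3.78 and 1.93 CPM, likewise remained under the controls (-1.05 ± 0.18 and -0.99 ± 0.21). In contrast, glrb.S, at 4.93, 6.13 and 1.51 CPM, exceeded the 1-week noses (2.53 ± 0.35) and overlapped the controls (0.53, adjusted p = 0.179). General neuron markers were at 197 to 461 CPM in the 7-week noses, beside 1593 to 1791 CPM in controls, with 14 of 22 called lower and a median log2 fold change of -1.16. Glial markers were at 299 to 410 CPM beside 651 to 769 CPM. Their part in the receptor changes was not tested.

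The serotonin receptor htr2c.L and the nicotinic gene chrna5-like.L were lowest at 7 weeks. htr2c.L read 2.29, 1.61 and 0.518 CPM against 4.65, 6.25 and 5.19 CPM in controls (-1.81 ± 0.29) and 6.09, 5.41 and 5.06 CPM at 1 week (-1.80 ± 0.29). chrna5-like.L read 1.48, 1.57 and 1.08 CPM against 4.88, 3.85 and 3.60 CPM in controls (-1.51 ± 0.21) and 3.68, 2.88 and 3.02 CPM at 1 week (-1.10 ± 0.21). grik5-like.1.L, raised at 2 days, was at 42.9, 29.4 and 33.5 CPM, below the controls (-0.96 ± 0.15) and the 1-week noses (-1.30 ± 0.15). In all, 40 of 144 receptor genes were higher at 7 weeks than at 1 week and 12 lower (27.8% and 8.33%), against 17.1% and 16.4% of all genes. The count of 52 fell to 13 with only the 2 groups in the fit. Without 7-week library 1 the split was 27 higher and 29 lower. Of 40 supply genes, 19 were higher than in controls and 9 lower, and of 81 partners 16 and 20.

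Bulbs of transected animals were compared with control bulbs in the same way. At 2 days 35 of 159 were higher and 14 lower, 30.8% in all, against 46.2% of all genes (21.6% higher and 24.7% lower). At 1 week 46 were higher and 11 lower, 35.8% in all, against 56.0% of all genes (27.0% higher and 29.1% lower). The median log2 fold change at 1 week was 0.18 over the receptor genes and 0.01 over all genes. At 7 weeks 41 were higher and 48 lower, 56.0% in all, against 65.9% of all genes (32.1% higher and 33.7% lower). Fitting all 39 libraries in 1 model cut these counts to 13, 13 and 34. The 3 comparisons share the same control bulbs, and injury cannot be told apart from a stage or batch difference of these controls.

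The rho GABA receptor gene gabrr3.L, a subunit of slow chloride channels best known from the retina, fell from 3.34, 3.42 and 2.47 CPM in controls to 0.222, 0.150 and 0.348 CPM at 2 days (-3.65 ± 0.33), 0.228, 0.315 and 0.410 CPM at 1 week (-3.35 ± 0.32) and 0.465, 0.462 and 0.250 CPM at 7 weeks (-3.04 ± 0.32). Its copy gabrr3.S moved the other way, from 0.0994, 0.126 and 0.204 CPM to 0.470, 0.650 and 0.397 CPM, 0.600, 0.391 and 0.684 CPM and 0.482, 0.682 and 0.417 CPM (1.78 ± 0.36, 1.92 ± 0.36 and 1.84 ± 0.36). After the operation the range of the .S copy lay above that of the .L copy or across it, and the sum of both was lower at each time (-2.16, -1.95 and -1.90). The 2 groups did not overlap for either copy at any time.

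chrnd.L, the delta subunit of the muscle nicotinic receptor, rose in the bulbs from 0.236, 0.316 and 0.433 CPM to 1.59, 1.53 and 1.17 CPM at 2 days (2.09 ± 0.26), 1.79, 2.18 and 1.83 CPM at 1 week (2.52 ± 0.25) and 1.03, 1.40 and 0.867 CPM at 7 weeks (1.70 ± 0.26). chrne.L, the epsilon subunit of the same receptor, was higher at 1 week at 6.24, 6.19 and 7.31 CPM against 3.67, 3.97 and 2.64 CPM (0.90 ± 0.15). rapsn.L, whose protein clusters this receptor, was called higher at all 3 times (1.20, 1.54 and 1.77). Summed muscle markers ran from 40.0 to 55.3 CPM over all bulbs, with no high library. In the fit of all 39 libraries the calls of chrnd.L at 7 weeks and chrne.L at 1 week were lost.

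Neuronal nicotinic chrna10.S, a subunit of hair cell channels in mammals, fell from 1.93, 1.56 and 1.54 CPM to 0.444, 0.50 and 0.358 CPM at 2 days (-1.98 ± 0.31), 0.482, 0.580 and 0.273 CPM at 1 week (-1.92 ± 0.30) and 0.258, 0.616 and 0.450 CPM at 7 weeks (-1.93 ± 0.30). gabrd.L, the delta subunit of GABA-A receptors outside synapses, was called at 2 days and not at 1 week or 7 weeks. It read 9.26, 11.6 and 12.1 CPM in controls, 5.54, 2.82 and 2.29 CPM at 2 days (-1.66 ± 0.28), 12.2, 13.7 and 8.87 CPM at 1 week and 17.5, 19.2 and 15.4 CPM at 7 weeks (0.62 ± 0.26, adjusted p = 0.051). Its 2-day libraries were below, and its 7-week libraries above, every control.

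**Figure D5:**
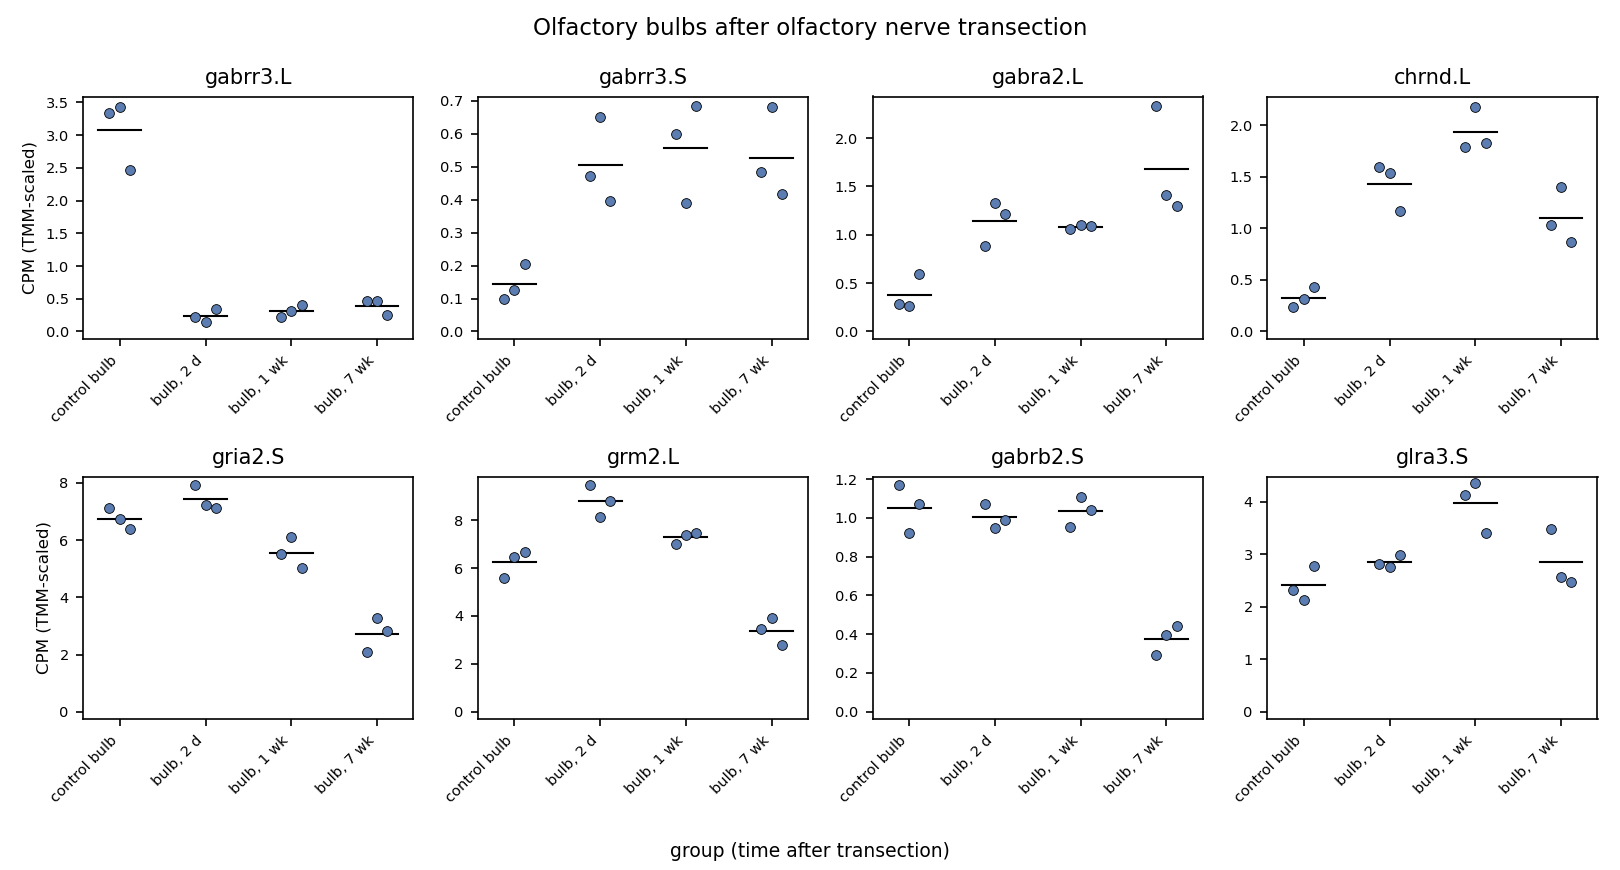
CPM of 8 receptor genes in control bulbs and at 2 days, 1 week and 7 weeks after transection (points, libraries; line, group mean). gabrr3.L fell and gabrr3.S and chrnd.L rose by 2 days, while gria2.S, grm2.L and gabrb2.S were lowest at 7 weeks.

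Genes called higher in the first week came from several transmitter systems, at a share near that of all genes. It was 22.0% against 21.6% at 2 days and 28.9% against 27.0% at 1 week. The kainate gene grik2.S rose from 59.1, 58.7 and 65.0 CPM to 101, 93.4 and 91.4 CPM at 2 days and 130, 142 and 128 CPM at 1 week (1.10 ± 0.08, adjusted p = 3.58e-07 at 1 week), and read 134, 132 and 147 CPM at 7 weeks. The beta receptor adrb3.L rose from 1.12, 1.38 and 1.74 CPM to 2.84, 4.10 and 3.73 CPM, 3.67, 3.07 and 2.92 CPM and 4.70, 4.21 and 5.05 CPM (1.30 ± 0.18, 1.16 ± 0.18 and 1.69 ± 0.18). adra2c.L rose from 17.0, 17.8 and 15.9 CPM to 25.9, 33.3 and 29.5 CPM at 2 days (0.78 ± 0.13). By family, 7 of 22 metabotropic serotonin genes were higher and 0 lower at both 2 days and 1 week, and 6 of 8 glycine receptor genes were higher and 0 lower at 1 week.

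Glycine receptor genes rose by small amounts. glra3.S, an alpha subunit, went from 2.32, 2.12 and 2.78 CPM to 4.13, 4.36 and 3.40 CPM at 1 week (0.69 ± 0.16). glrb.S went from 41.0, 42.1 and 45.5 CPM to 55.2, 55.9 and 52.4 CPM at 1 week (0.31 ± 0.07) and 69.2, 64.4 and 67.2 CPM at 7 weeks (0.61 ± 0.07), every library of these times above the controls. In noses glrb.S fell at 1 week, as given above.

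A test of the difference itself, nose change minus bulb change, covered all 163 receptor genes. At 2 days it called 4 higher and 9 lower (2.45% and 5.52%, beside 5.52% and 10.5% of all genes). At 1 week it called 4 and 19 (2.45% and 11.7%, beside 10.9% and 14.5%), and at 7 weeks 41 and 19 (25.2% and 11.7%, beside 16.4% and 19.3%). Without library 1 of the 7-week noses, 33 were higher and 35 lower at that time. For glrb.S the difference was -1.62 ± 0.35 at 2 days and -2.39 ± 0.37 at 1 week, and for gabbr1.S -1.03 ± 0.21 and -1.48 ± 0.21.

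gabra2.L showed how the 2 copies of a gene can part. It rose from 0.286, 0.262 and 0.598 CPM to 0.889, 1.33 and 1.22 CPM, 1.06, 1.10 and 1.09 CPM and 2.33, 1.41 and 1.29 CPM (1.57 ± 0.33, 1.48 ± 0.33 and 2.10 ± 0.32). Its far more abundant copy gabra2.S read 25.4, 27.7 and 23.8 CPM in controls and 31.3, 22.9 and 21.2 CPM at 7 weeks (-0.07, adjusted p = 0.684), so the summed value was not called at any time (0.32, 0.07 and -0.04). GABA-B genes split at 1 week, gabbr1.L going from 404, 406 and 388 CPM to 321, 321 and 322 CPM (-0.35 ± 0.09) and gabbr1.S from 252, 255 and 259 CPM to 311, 309 and 314 CPM (0.25 ± 0.09), and their sum was not called (-0.11).

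At 7 weeks the glutamate receptor genes called in the bulb were mostly lower. Of 5 AMPA genes 4 were lower and 0 higher, of 12 metabotropic glutamate genes 8 lower and 1 higher, and of 11 kainate genes 6 lower and 2 higher. Of 14 NMDA genes 4 were lower, 1 higher and 9 neither, with a median log2 fold change of -0.03. Of all genes 33.7% were lower and 32.1% higher. gria2.S, of the subunit that blocks calcium entry through AMPA receptors in mammals, was at 2.08, 3.27 and 2.81 CPM against 7.12, 6.72 and 6.39 CPM in controls (-1.34 ± 0.14, adjusted p = 3.92e-06). grm2.S was at 0.414, 1.14 and 0.984 CPM against 3.17, 3.61 and 3.36 CPM (-1.99 ± 0.24). The NMDA gene grin2c.S was at 2.33, 3.21 and 3.11 CPM against 5.98, 5.33 and 5.88 CPM (-1.02 ± 0.14). All 7-week libraries were below all controls in these 3 genes.

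Muscarinic genes were 5 of 9 lower and 2 higher, and neuronal nicotinic genes 5 of 15 tested lower and 0 higher. GABA-A and rho genes were 9 of 22 higher and 6 lower. Among them gabrr2.S rose from 0.149, 0.0994 and 0.229 CPM to 0.551, 0.594 and 0.592 CPM (1.85 ± 0.33), and gabrb2.S, a beta subunit, fell from 1.17, 0.922 and 1.07 CPM to 0.293, 0.396 and 0.442 CPM (-1.49 ± 0.20), a call lost when both copies were summed (-0.35). Adrenergic genes were 9 of 18 higher and 2 lower. adra1b.L was at 0.741, 1.25 and 0.909 CPM against 0.298, 0.181 and 0.497 CPM (1.56 ± 0.40), while adrb3.S fell from 0.671, 0.569 and 0.688 CPM to 0.207, 0.253 and 0.392 CPM (-1.16 ± 0.24) and summed with adrb3.L rose (1.18). The serotonin receptor copies htr2a.L and htr2a.S went apart as well (0.71 ± 0.08 and -0.49 ± 0.15).

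From 1 week to 7 weeks 52 receptor genes fell and 13 rose in the bulbs, 40.9% in all, with a median of -0.20 beside 0.02. Of all genes 38.6% were called (18.5% lower and 20.1% higher). All 5 AMPA genes, 10 of 12 metabotropic glutamate genes and all 3 GABA-B genes were lower, and none of these families had a gene higher. gria3.L fell from 21.7, 21.3 and 19.5 CPM to 12.3, 10.4 and 11.4 CPM (-0.88 ± 0.11), and grm2.L from 7.00, 7.38 and 7.47 CPM to 3.46, 3.89 and 2.78 CPM (-1.11 ± 0.13). The rho subunit gabrr1.L rose from 6.82, 7.75 and 5.90 CPM to 10.3, 11.0 and 11.7 CPM (0.69 ± 0.12). Fitting all 39 libraries in 1 model cut the count from 65 to 15, of which 33.3% were higher against 20.0% in the first fit.

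General neuron markers fell over the same series, from 7665 to 7797 CPM in control bulbs to 6065 to 6469 CPM at 2 days, 4819 to 5304 CPM at 1 week and 3586 to 4073 CPM at 7 weeks. Bulb neuron markers were at 1340 to 1410 CPM in control bulbs and at 1624.5 to 1813 CPM at 2 days (12 of 23 called higher, 0 lower). They were at 1274 to 1399 CPM at 1 week (3 higher, 9 lower) and 1136 to 1194 CPM at 7 weeks (2 higher, 12 lower). Glial markers went from 3876 to 3896 CPM to 2153 to 2364 CPM at 2 days, with 6 of 20 called lower and 0 higher. They were at 2429 to 2846 CPM at 1 week (1 higher, 6 lower) and 1539 to 2515 CPM at 7 weeks (1 higher, 14 lower). Leukocyte markers were at 69.1 to 84.7 CPM in control bulbs, 198 to 232 CPM at 2 days (21 of 24 called higher), 177 to 198 CPM at 1 week and 117 to 165 CPM at 7 weeks. Their part in the receptor changes was not tested, and age and time after injury cannot be told apart at 7 weeks. Of 84 receptor partners 17 were higher and 9 lower at 2 days, 20 and 12 at 1 week, and 18 and 34 at 7 weeks. cacng4.S, an auxiliary AMPA subunit, was higher at each time (1.23, 1.23 and 1.66), and the metabotropic glutamate scaffold homer3.L lower (-0.64, -1.30 and -1.58). Of 45 supply genes 11 were higher and 17 lower at 7 weeks. dbh.L (2.99) was among the first and the vesicular glutamate transporter slc17a6.L (-2.22) among the second.

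Amino acids are odorants for frog larvae, and the exposed noses were compared with the same control noses as above. Titles do not say that these controls were matched in stage or batch. Exposure and such a difference therefore cannot be told apart. At 200, 9 of 144 receptor genes were higher and 18 lower, 18.8% in all, against 35.4% of all genes (17.8% higher and 17.7% lower). At 1000, 8 were higher and 29 lower, 25.7% in all, where 49.5% of all genes were called (26.8% higher and 22.7% lower), and the median log2 fold change was -0.29 beside 0.02. The count at 200 was 11 without its library 1 and 17 without control 1.

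Of 16 adrenergic genes tested, 6 were higher and 0 lower at 200, and 5 were higher and 2 lower at 1000. At 200 none of the 9 higher calls over all families held in every alternative, and the higher calls numbered 2 without control 3 and 3 without the exposed library 1. adra2a.L read 6.92, 7.28 and 9.75 CPM in controls, 12.1, 8.62 and 11.2 CPM at 200 (0.40, adjusted p = 0.14) and 19.1, 23.7 and 27.5 CPM at 1000 (1.66 ± 0.21, adjusted p = 2e-06). adra1a.L read 3.68, 3.27 and 3.28 CPM, then 5.63, 5.35 and 6.92 CPM (0.80 ± 0.22, a call lost in the fit of all 39 libraries), then 6.91, 5.89 and 9.32 CPM (1.22 ± 0.22). adra1b.L was at 1.09, 0.700 and 1.25 CPM at 1000 against 0.0920, 0.264 and 0.208 CPM (2.49 ± 0.45), whereas adra1b.S had 0 reads there against 11 in controls, at least 5.74-fold lower with the floor of 3 reads over the group. adra1d.L fell at 1000, from 8.40, 12.5 and 9.65 CPM to 5.82, 5.17 and 5.65 CPM (-0.77 ± 0.14), while its copy adra1d.S was called higher. The .L copy held 93.4 to 94.8% of the reads of this pair in controls and 84.2 to 87.2% at 1000. The GABA-A gene gabra2.S read 0.552, 0.849 and 0.584 CPM in controls, 0.683, 0.673 and 0.704 CPM at 200 (0.04, adjusted p = 0.939) and 3.56, 3.11 and 2.49 CPM at 1000 (2.31 ± 0.32).

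Of 16 metabotropic serotonin genes tested, 4 were lower and 1 higher at 200, and 5 lower and 0 higher at 1000, beside 17.7% and 22.7% of all genes lower. Of 7 muscle nicotinic genes, 3 were lower at each exposure. htr2c.L read 4.65, 6.25 and 5.19 CPM in controls, 1.96, 1.88 and 1.79 CPM at 200 (-1.52 ± 0.27) and 0.923, 1.39 and 1.02 CPM at 1000 (-2.17 ± 0.28). htr7.S read 3.45, 3.10 and 2.08 CPM, then 1.29, 1.59 and 1.03 CPM (-1.15 ± 0.32), then 0.599, 0.672 and 0.615 CPM (-2.09 ± 0.33). The NMDA gene grin2c.L fell from 0.598, 1.53 and 1.08 CPM to 0.389, 0.310 and 0.302 CPM and 0.212, 0.257 and 0.304 CPM (-1.67 ± 0.37 and -1.92 ± 0.37). Each exposed library named here was below all controls. The difference between the 2 exposures was not tested.

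Exposed noses stood apart from their controls in markers of other cells as well. Cell-cycle markers were at 114 to 132 CPM at 200 and 125 to 150 CPM at 1000, beside 660 to 1037 CPM in controls after an exposure of 5 h, and general neuron markers at 706 to 783 and 419 to 500 CPM beside 1593 to 1791 CPM. Muscle markers were at 45.6 to 63.5 CPM at 200 and 39.6 to 43.8 CPM at 1000, with 22 and 25 of 26 tested called lower, and glial markers at 355 to 390 and 274 to 296 CPM beside 651 to 769 CPM. Their part in the receptor changes was not tested. Of 81 receptor partners 5 were higher and 9 lower at 200, and 7 and 14 at 1000; of 40 supply genes 7 and 7, and 9 and 10. maoa.L, which degrades monoamines, was higher at 1000 (3.06).

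Of the 7 muscle-type nicotinic genes, chrnd.L, chrna1.L and chrnb1.L followed the muscle markers in single noses. Values of the others in single noses are not given here. chrnd.L read 2.23, 0.334 and 0.208 CPM in the controls and 0.0652, 1.55 and 0.256 CPM at 2 days. chrna1.L, the alpha subunit that binds acetylcholine, read 2.39, 0.376 and 0.130 CPM and 0.0652, 0.985 and 0.0913 CPM, and chrnb1.L 1.20, 0.236 and 0.143 CPM and 0.0816, 1.99 and 0.0183 CPM. In all 3 the high libraries were control 1 and 2-day library 2, the same that held 3210 and 2420 CPM of muscle markers. None of these genes was called at 2 days or 1 week. After exposure chrnd.L was called lower at 1000 (-4.00 ± 1.12), and without control 1 it was -2.21 and not called. chrnb1.L at 1000 likewise lost its call without control 1 (-2.31).

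The deposited TPM values (transcripts per 1e6, the authors' scaling by length) allow a reading between genes only with care, because they follow the span of a gene, introns included. Reads per unit of TPM correlated with RefSeq gene span at a Spearman rho of 0.928 to 0.944 over 13730 to 16722 genes, by library, a description across genes that are not independent. For 91 of 113 receptor genes with a value the length used was within 2-fold of the span. On that scale high values in control noses were those of adra2a.L (34.1 TPM), adrb3.S (21.9 TPM) and grik5-like.1.L (19.0 TPM), and the highest in control bulbs grik5-like.1.L (228 TPM), chrnb2.S (173 TPM), gria2.S (139 TPM) and grin1.S (81.8 TPM). gria2.S had only 6.39 to 7.12 CPM in those bulbs, and the length used for it was 0.0043 of its span. Comparisons of one gene between groups do not depend on this scaling.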

How the data were processed

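RNA sequencing covered 39 X. laevis libraries in 13 groups of 3, grouped by their titles. Per the submitters' processing notes, the tools were STAR 2.5 for alignment, featureCounts (Subread 1.5.0) for counting and bcl2fastq 2.17.1.14 for demultiplexing. The build of the genome is not given in the sources used here. The authors deposited raw counts per gene, normalised signal and TPM values. Counts were the input of every test, the deposited normalised signal was not used, and TPM served for levels between genes only. Of 37240 lines with a gene, 17 repeats of identical counts were dropped, leaving 37223 genes, and 1 further line was empty. Table columns name group and replicate without the titles' library number, so libraries were joined to groups only. Within groups, Spearman correlations of libraries were 0.9578 or more.

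Counts were tested in R 4.3.3 with edgeR 4.0.16 (limma 3.58.1): filterByExpr (minimum count 10, minimum total 15), TMM scaling, robust quasi-likelihood fits, Benjamini-Hochberg adjustment over all genes tested and calls at an adjusted p under 0.05. One model held the 7 nose groups (21 libraries), others the 4 bulb groups (12), the principal cavity and VNO (6), and noses and bulbs of the transection series (24, for nose against bulb and for differences between tissues). SE is the log2 fold change over the root of F. CPM uses TMM factors over all 39 libraries. Folds against 0 reads use a floor of 3 counts over the group, counting intervals cover counting error only (95%), and a gene with 1 to 3 reads gets an exact interval. Scripts were tested on simulated data.

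Genes were named where called, without overlap between groups and at 0.5 CPM or more in the higher group, up to 8 per direction by size of change, and a few that the rule names are not reported here. Members, gene lists and this rule were chosen with earlier results of these data known. Alternatives were DESeq2 1.42.0 with its size factors, RLE factors, no low-count filter, summed homeologs, all libraries in 1 model, only the groups compared, leaving out each library and, chosen after seeing the data, a replicate block. A call is said to hold in every alternative where it kept its direction and threshold in each one that tested the gene. The replicate block was not counted for this. Of the 163 genes, 117 matched a symbol in the RefSeq table of assembly version 10.1, which gave the gene spans and no coordinates here. Python 3.11.15 with pandas 2.3.3 and matplotlib 3.10.9 made tables and figures.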

Additional observations from a re-analysis of the deposited data

Results flagged for a closer look

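The difference itself was tested between nose and bulb (edgeR's quasi-likelihood interaction, nose change minus bulb change, log2 scale, Benjamini-Hochberg adjustment). Over the 3 times after transection 40 entries were named, each a receptor gene at a given time. Of these entries, 11 differed between nose and bulb under every alternative. A gene is counted separately at each time, as glrb.S and gabbr1.S are among the 11. The replicate block was not counted among these alternatives.

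At 2 days the difference was -1.71 for htr4.L (adjusted p = 0.0100), -1.62 for glrb.S (0.00332) and -1.03 for gabbr1.S (0.00194). Without control nose 1 the value of htr4.L was -1.13. At 1 week it was -2.39 for glrb.S (6.93e-05) and -1.48 for gabbr1.S (2.77e-05). The value of glra3.S at 1 week, -3.28 (0.0115), rests on 2 reads in the operated noses beside 14 in the controls, and was -1.22 with both copies summed. In bulbs glrb.S was not called at 2 days (0.08, adjusted p = 0.328) and rose at 1 week, and gabbr1.S rose at both times (0.28 and 0.25).

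At 7 weeks the AMPA gene gria1-like.1.L differed by 3.44 (0.000104), higher in operated noses and not called in bulbs (-0.16, adjusted p = 0.112). It was 2.65 without 7-week nose 1 and 1.66 with both copies summed. chrna10.L differed by 3.83 (0.00450), and in bulbs it fell. Its difference was 3.02 without 7-week nose 1 and 2.09 with both copies summed. htr2c.L (-2.05, 3.45e-05) and chrna5-like.L (-1.84, 3.37e-05) were lower in operated noses. grm5-like.L (-2.85, 0.00890) rests on 3 reads in the 7-week noses.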

How the results depend on the processing

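Of 2649 values recomputed for 200 named values, 2449 kept direction and side of the threshold, 190 were no longer called and 10 changed sign, all 10 with homeologs summed: chrne.S between nose and bulb (-0.50), htr7.L between chambers (-0.98), htr7.S in 7-week noses (0.16, and 0.31 against 1 week), gabrr3.S in bulbs (-2.16, -1.95 and -1.90), and gabra2.L (-0.042) and adrb3.S (1.18, and 0.23 against 1 week) in 7-week bulbs. With only the groups compared in the fit, receptor genes called went from 58 to 23 in 7-week noses, 52 to 13 against 1 week, and for the difference between tissues from 13 to 31, 23 to 39 and 60 to 37 at 2 days, 1 week and 7 weeks. With all libraries in 1 model they went from 49, 57 and 89 to 13, 13 and 34 in bulbs, 65 to 15 between 1 and 7 weeks, 18 to 54 between chambers and 13 to 8 for the difference at 2 days. DESeq2 gave 21 and 38 for the difference at 2 days and 1 week. Leaving out single libraries gave 8 to 14 called in 2-day noses, 11 to 22 at 200, 9 to 18 between chambers and 8 to 14 for the difference at 2 days. Lowest were the counts without 2-day nose 3, without library 1 at 200, without principal cavity library 1 and without 2-day bulb 3. The cause was not tested. With homeologs summed, 16.0% of calls at 200 were higher (33.3% otherwise). Calls held in every alternative for 133 of 140 genes between nose and bulb, 31 of 49 in adults, 6 of 14, 10 of 20 and 22 of 58 in operated noses, 11 of 49, 10 of 57 and 29 of 89 in operated bulbs, 6 of 18 between chambers, and 6 of 27 and 21 of 37 after exposure. These counts leave out the replicate block and any alternative in which the gene was not tested. A replicate block on the numbers in the column names, chosen after seeing the data, left each count of receptor genes called within 1.5 times (16 between chambers, 53 in 7-week noses, 86 in 7-week bulbs). The titles do not carry these numbers. Between chambers, deviations of same-numbered libraries correlated at -0.0775, 0.115 and 0.236, beside a median of -0.071 for libraries of other numbers. Of the 6 libraries, 3 correlated best with their own number. With so few libraries this cannot show whether the chambers were paired. Depth limits genes with few reads, mostly in the noses at 7 weeks, 2 of which had 25.82 and 27.19 M reads.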
